A study of Mus musculus with 2 samples.

Results

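The genes described here encode the nuclear-encoded subunits of the mitochondrial respiratory chain and the ATP synthase, measured in CMT93 cells with and without lipopolysaccharide (LPS). They were chosen by gene name on the array: names starting with Nduf or Uqcr, Sdha to Sdhd, names starting with Cox4 to Cox8, and names starting with Atp5. This gave 93 of the 34648 gene names on the array, with 136 probes between them. Of these, 83 are subunits and 10 are not. The 10 are 7 complex I assembly factors of the Ndufaf series, the pseudogene Atp5c1-ps, and Atp5s and Atp5sl, which RefSeq now names Dmac2l and Dmac2. By complex, 45 names belong to complex I, 4 to complex II, 8 to complex III, 18 to complex IV and 18 to complex V.

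CMT93 is an established epithelial line from a rectal carcinoma of a C57BL/ICRF mouse aged 19 months, and it was grown in DMEM. Total RNA of LPS-treated cells was hybridised to 1 one-colour Agilent array and that of control cells to another. LPS, a glycolipid that Gram-negative bacteria carry on their surface, was given at 3 µg/mL for 24 h. Both groups are the same single cell line, so the arrays say nothing of other epithelial cells or of tissue.

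The respiratory chain sits in the inner mitochondrial membrane. Complexes I and II pass electrons from NADH and succinate to ubiquinone, complex III passes them on to cytochrome c, and complex IV gives them to oxygen. Complexes I, III and IV pump protons, and complex V, the ATP synthase, uses the gradient to make ATP. Most subunits are nuclear genes and some are encoded in mitochondrial DNA. In the colon, epithelial cells are known to rely strongly on oxidative metabolism.

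With 1 array per group there was no replicate check and no test, and 2 arrays set the limit on precision. A level below is the log2 processed spot intensity minus the 75th percentile of that array, and a difference is the LPS level minus the control level. Levels of different probes cannot be compared with each other. The value after ± is the SD of the difference over the repeated spots of probes printed up to 10 times. It is the median over the 25 such probes nearest in brightness to the gene. The brightest genes share the same value, as do the dimmest, so there the probes may differ from the gene in brightness. This SD covers the slide only, not the cultures, and had a median of 0.027 over the measured members. A gene was called measured where its brightest probe passed the scanner's test of signal over background on both arrays. That test was passed by 54.7% of spots on the LPS array and 55.8% on the control array, and 20328 genes were measured. In RNA from whole cultures, fewer cells of a type and less RNA per cell cannot be told apart.

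All 8 epithelial marker genes were measured, with a summed intensity of 652133 on the LPS array and 755066 on the control array. All 8 were lower on the LPS array on this scale, with a median log2 difference of -0.23, and Vil1, the microvillus protein villin, stood at -0.73. Of 7 leukocyte markers, 2 were measured (Cd3e and Cd68), and for Lyz2, Tyrobp and Laptm5 neither array had signal well above background. The leukocyte markers summed to 2420 on the LPS array and 2285 on the control array. Of 7 fibroblast markers, 2 were measured, Col1a1 and Col1a2, and the list summed to 288 on the LPS array and 223 on the control array. Both measured ones were higher on the LPS array, with a median log2 difference of 0.61. Of the other fibroblast markers, 1 was well above background on the LPS array alone, 1 on the control array alone and 3 on neither. Of 4 endothelial markers 2 were measured, and the list summed to 5451 on each array. The part of these markers in the values below was not tested.

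Nearly all respiratory chain genes were measured, and they differed little between the arrays. Of the 93 members, 89 were well above background on both arrays and 4 on neither. The 4 were Ndufa4l2, Cox6a2, Cox8b and Cox8c, with intensities of 4.07 to 17.4 on the LPS array and 3.42 to 13.2 on the control array. Ndufa4l2 is known as a hypoxia-induced relative of Ndufa4, and Cox6a2 and Cox8b are the forms of heart and skeletal muscle. No member spot was saturated, and no member was measured on 1 array only. The levels of the 89 had a lowest value of -4.52, a median of 5.73 and a highest value of 8.68 on the LPS array, against -4.85, 5.76 and 8.66 on the control array.

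**Figure D1:**
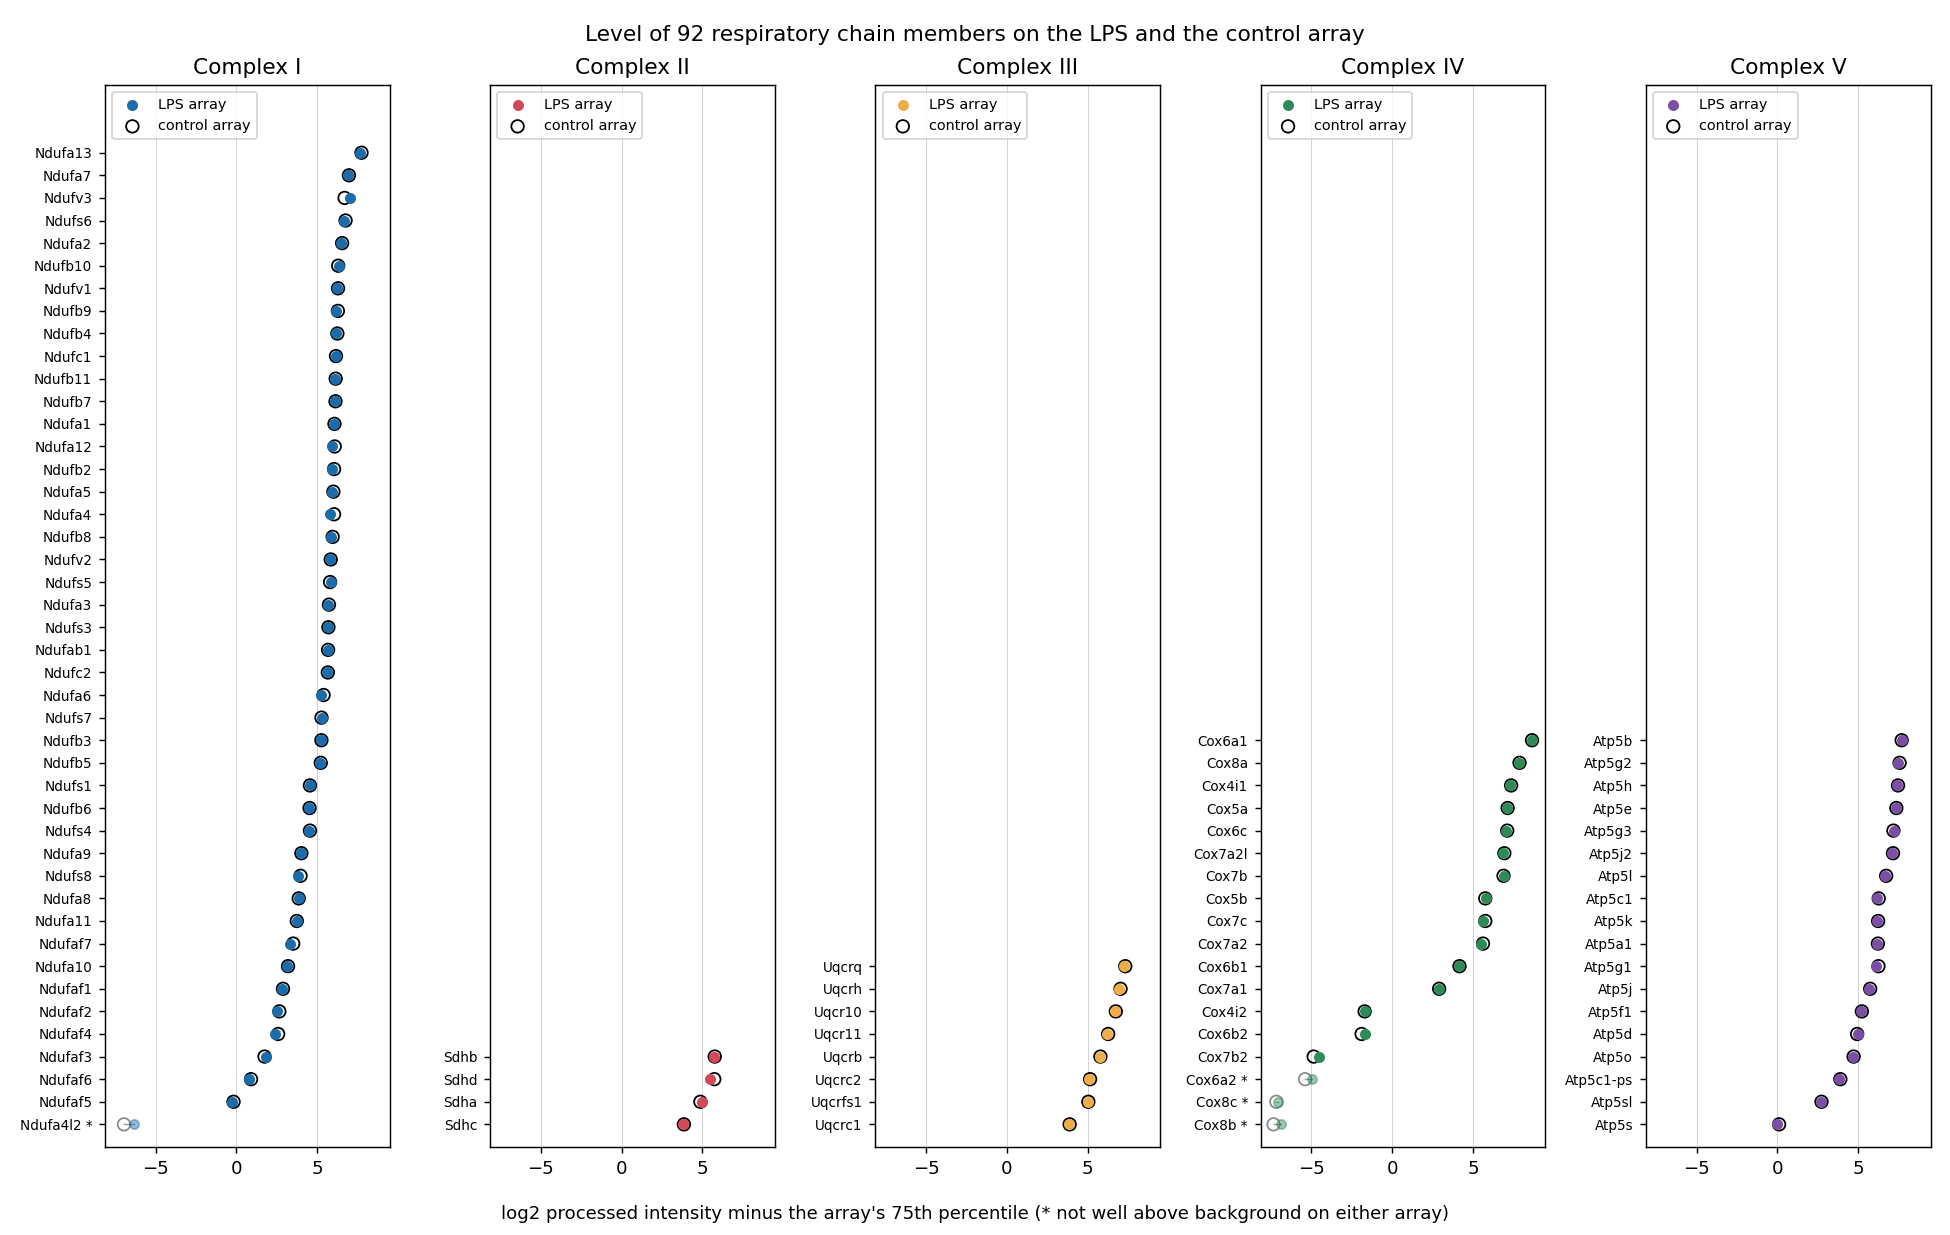
Level of 92 of the 93 members on the LPS array (filled) and the control array (open), as log2 processed intensity minus the array's 75th percentile, by complex. The filled and open points of most members coincide; Ndufv3 is shifted to the right on the LPS array, and the 4 members marked with an asterisk were dim on both arrays.

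The log2 differences of the 89 measured members had a median of -0.043 and lay between -0.25 and 0.36. The median over all measured genes was -0.031. A threshold of 0.32 on the log2 scale, which is 25% higher or 20% lower, was passed upwards by 2 members, against 8.51% of all measured genes. These were Ndufv3 and Cox7b2. None passed it downwards, against 9.13% of all measured genes. None reached 1.5-fold, which 3.5% of measured genes did upwards and 2.79% downwards, or 2-fold, which 1.45% did upwards and 0.576% downwards. In all, 87 of the 89 members (97.8%) lay within 0.32 either way, against 82.4% of all measured genes. Signal strength moves with this count: of the 10164 measured genes at or above the median brightness, 90.2% lay within 0.32, and 84 of the 89 members were among those brighter genes. Differences of at most 0.1 were seen for 68 members (76.4%), 54.3% of the brighter genes and 42.9% of all measured genes. The brighter genes start at a mean level of 0.56, whereas the measured members had a median of 5.74. Most members were thus far brighter than that limit, and genes of the same brightness as the members were not compared.

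More members lay below 0 than above it, by small amounts that depend on the scaling. On the scale used here 18 of the 89 (20.2%) were above 0, against 42.1% of all measured genes. With quantile normalization 8 (8.99%) were above 0, and with median centring 35 (39.3%). Relative to the median of all measured genes, 37 of 89 members were above it on the scale used here, and 20 with cyclic loess. The members' median lay below the all-gene median under every setting tried, with a gap (members minus all genes) of -0.078 to -0.0094. On the scale used here the gap was -0.012. Median centring and the percentile over detected probes could not change it, because they shift all genes alike. The gap of -0.078 came with no filter on dim probes, where all 34648 genes, dim ones included, were the reference.

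**Figure D2:**
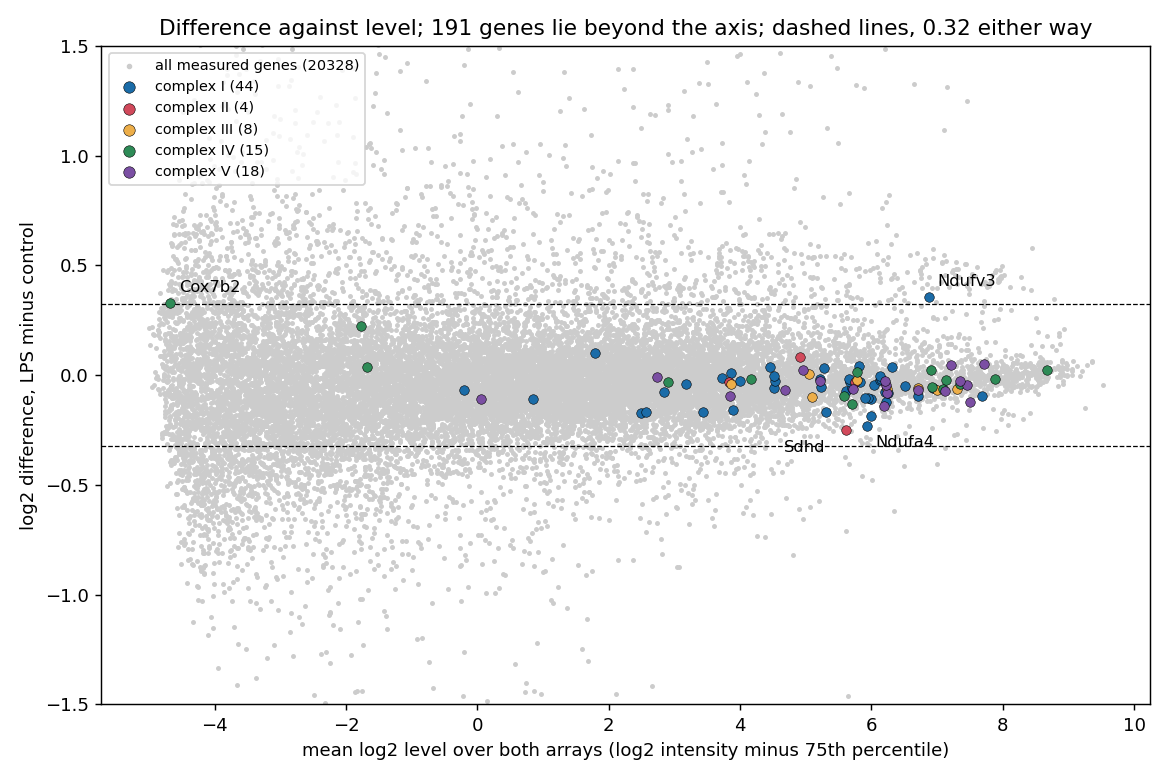
Log2 difference, LPS minus control, against the mean log2 level over both arrays for the 20328 measured genes (grey) and the 89 measured members (coloured by complex); dashed lines mark 0.32 either way, and 191 genes lie beyond the axis. The members lie mostly to the right in a narrow band around 0, with Ndufv3 and the dim Cox7b2 just above the upper line and Sdhd and Ndufa4 lowest.

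Complex I is the NADH dehydrogenase and the largest complex of the chain. Of its 45 names, 44 were measured, with a median difference of -0.057 and a range of -0.23 to 0.36. The 7 catalytic core subunits encoded in the nucleus lay between -0.16 and 0.035, with a median of -0.030. The 30 measured accessory subunits, which surround the core, had a median of -0.053. Of the 44, 7 (15.9%) were above 0 and 1 (2.27%) was past 0.32 upwards, against 42.1% and 8.51% of all measured genes. Counts above 0 depend on the scaling here too.

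Ndufv3, an accessory subunit of the NADH-oxidising module, had the highest difference of the 89 measured members. Its level was 7.05 on the LPS array and 6.69 on the control array, a difference of 0.36 ± 0.027 or 1.28-fold. It was the only member of complex I past 0.32, and its probe lies on chromosome 17 at 31668209 to 31668268 (mm9, plus strand). In the array annotation this probe matches 2 RefSeq transcripts of the gene. A second Ndufv3 probe, at 31665148 to 31665207 and matching 1 of them, read 1.15 on the LPS array and 0.91 on the control array, a difference of 0.24. The third and dimmest one, at 31663758 to 31663817 with no RefSeq transcript listed, read -1.87 on the LPS array and -1.78 on the control array, a difference of -0.090. Taking the median over the 3 probes gave Ndufv3 0.24, which is short of 0.32.

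At the other end of complex I, Ndufa4 was at 5.81 on the LPS array and 6.04 on the control array, a difference of -0.23 ± 0.027 or 1.17-fold lower. Ndufa4 was first assigned to complex I and is now regarded as a subunit of complex IV. By its name it is counted here under complex I and its accessory subunits, and the complex IV values leave it out. AA467197, the mouse gene of the Ndufa4 paralog known as Nmes1, was not well above background on either array. Ndufa12, an accessory subunit, was at 5.89 on the LPS array and 6.08 on the control array, a difference of -0.19 ± 0.027. These downward differences were several times the spread between spots and short of 0.32.

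Other complex I subunits lay closer to 0. Ndufa13, also known as GRIM-19, read 7.64 on the LPS array and 7.74 on the control array, a difference of -0.095 ± 0.027. Ndufa7, an accessory subunit, read 6.90 on the LPS array and 6.96 on the control array, a difference of -0.059 ± 0.027. Ndufs5, of the membrane arm, read 5.84 on the LPS array and 5.80 on the control array, a difference of 0.040 ± 0.028. Ndufab1, the mitochondrial acyl carrier protein that complex I also holds, read 5.65 on the LPS array and 5.67 on the control array. Its second probe differed by 0.30, against -0.016 on the brightest one, so its direction depends on the probe.

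The 7 assembly factors, which help build complex I and are not part of it, had a median of -0.11 and lay between -0.17 and 0.10. The lowest, Ndufaf4, read 2.41 on the LPS array and 2.58 on the control array, a difference of -0.17 ± 0.037. The highest, Ndufaf3, read 1.84 on the LPS array and 1.74 on the control array, a difference of 0.10 ± 0.043, and it was the only one of the 7 above 0.

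Complex II, succinate dehydrogenase, has 4 subunits, and all were measured. The median was -0.033 and the range -0.25 to 0.082. Sdhd, a small subunit that anchors the enzyme in the membrane, was the lowest of all 89 members, with a level of 5.48 on the LPS array and 5.73 on the control array. Its difference was -0.25 ± 0.028, or 1.19-fold lower, and its 1 probe lies on chromosome 9 at 50404630 to 50404689 (mm9, minus strand). The other membrane anchor, Sdhc, read 3.82 on the LPS array and 3.85 on the control array, a difference of -0.033 ± 0.028. Sdhb, the iron-sulfur subunit, read 5.73 on the LPS array and 5.76 on the control array, a difference of -0.032 ± 0.028. Sdha, the flavoprotein that oxidises succinate, read 4.95 on the LPS array and 4.87 on the control array, a difference of 0.082 ± 0.028. The anchors Sdhd and Sdhc thus did not lie together, and the lowest and the highest of the 4 differed in sign.

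Complex III, the cytochrome bc1 complex, showed the narrowest range of the 5 complexes. All 8 names were measured, between -0.099 and 0.0043, with a median of -0.060. Uqcrc2, a core subunit with a probe on chromosome 7 printed at 10 spots, read 5.05 on the LPS array and 5.15 on the control array, a difference of -0.099 with an SD of 0.017 over its own spots. Its 10 spots ran from -0.13 to -0.080, all below 0. The other core subunit, Uqcrc1, read 3.85 on the LPS array and 3.88 on the control array, a difference of -0.038 ± 0.028. Uqcrfs1, the Rieske iron-sulfur protein, read 5.04 on both arrays, a difference of 0.0043 ± 0.028. Of the small subunits, Uqcrh, the hinge protein, stood at -0.070, Uqcrq at -0.062, Uqcr10 at -0.059 and Uqcrb at -0.022. The other measured Uqcrb probes, which overlap its brightest one in position, stood at -0.14 and -0.13. Those values lie below the range given above, as do the dimmest Uqcr10 probe at -0.12 and, by little, the second Uqcrq probe at -0.0998. The range holds for the brightest probe of each gene.

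Complex IV, cytochrome c oxidase, had 15 of 18 names measured, with a median of -0.018 that was 0.011 with median centring. Their range was -0.13 to 0.33, and 6 (40%) were above 0, near the 42.1% of all measured genes. Its subunits come in tissue forms. Cox4i1, the widely expressed form, read 7.32 on the LPS array and 7.36 on the control array, a difference of -0.042 ± 0.027. Cox4i2, its hypoxia and lung form, read -1.66 on the LPS array and -1.70 on the control array, a difference of 0.037 ± 0.10. Neither differed by more than 2 of these SDs. Cox7a1, the heart and muscle form, read 2.88 on the LPS array and 2.91 on the control array, a difference of -0.033 ± 0.035. Cox7a2, the liver form, read 5.53 on the LPS array and 5.62 on the control array, a difference of -0.097 ± 0.028, and Cox7a2l, which is known to join complexes III and IV into supercomplexes, stood at -0.053.

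Cox6a1 is the widely expressed form of its subunit, where Cox6a2 was not well above background. It read 8.68 on the LPS array and 8.66 on the control array, a difference of 0.021 ± 0.027. Cox8a read 7.87 on the LPS array and 7.89 on the control array, and neither Cox8b nor Cox8c was well above background. Cox6b1 read 4.15 on the LPS array and 4.17 on the control array, a difference of -0.016 ± 0.030. The dim testis form, Cox6b2, read -1.66 on the LPS array and -1.89 on the control array, a difference of 0.22 ± 0.10. Cox7c had the lowest difference of the measured Cox names, at 5.63 on the LPS array and 5.77 on the control array, or -0.13 ± 0.028. Cox6c and Cox7b stood at -0.062 and 0.021.

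Cox7b2, a form known from testis, was the second member past 0.32 and the dimmest measured one. It read -4.52 on the LPS array and -4.85 on the control array, a difference of 0.33 ± 0.24 or 1.26-fold, within 2 SDs of the spots. With normexp background correction its difference was 0.072. The array annotation gives its probe, 60 bases long, a far wider span on chromosome 5, from 71834459 to 71894699 (mm9, minus strand).

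Complex V, the ATP synthase, had all 18 names measured, with a median of -0.053 and a range of -0.14 to 0.050. Of the 18, 3 (16.7%) were above 0, against 42.1% of all measured genes. The 5 subunits of the catalytic F1 head had a median of -0.027. Among them Atp5b, the catalytic beta subunit, read 7.74 on the LPS array and 7.70 on the control array, a difference of 0.050 ± 0.027, the highest of the complex on this scale but -0.031 with quantile normalization. Atp5d, the delta subunit, read 4.96 on the LPS array and 4.94 on the control array, a difference of 0.025 ± 0.028. The peripheral stalk subunit gene Atp5h read 7.43 on the LPS array and 7.47 on the control array, a difference of -0.043 ± 0.027.

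The 3 genes of the rotating c-ring, which encode the same mature protein with different import signals, did not lie together on their brightest probes. Atp5g1 read 6.12 on the LPS array and 6.26 on the control array, a difference of -0.14 ± 0.027. Atp5g2 read 7.44 on the LPS array and 7.57 on the control array, a difference of -0.12 ± 0.027. The second Atp5g1 probe stood at -0.050, and the other Atp5g2 probes at -0.12 and -0.025, so the gap to Atp5g3 depends on the probe. Atp5g3 read 7.23 on the LPS array and 7.18 on the control array, a difference of 0.045 ± 0.027, on the other side of 0 but within 2 SDs of the spots, and 0 with quantile normalization. Among the 3 names that are not subunits, the lowest was Atp5s, at 0.0028 on the LPS array and 0.11 on the control array, a difference of -0.11 ± 0.061.

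**Figure D3:**
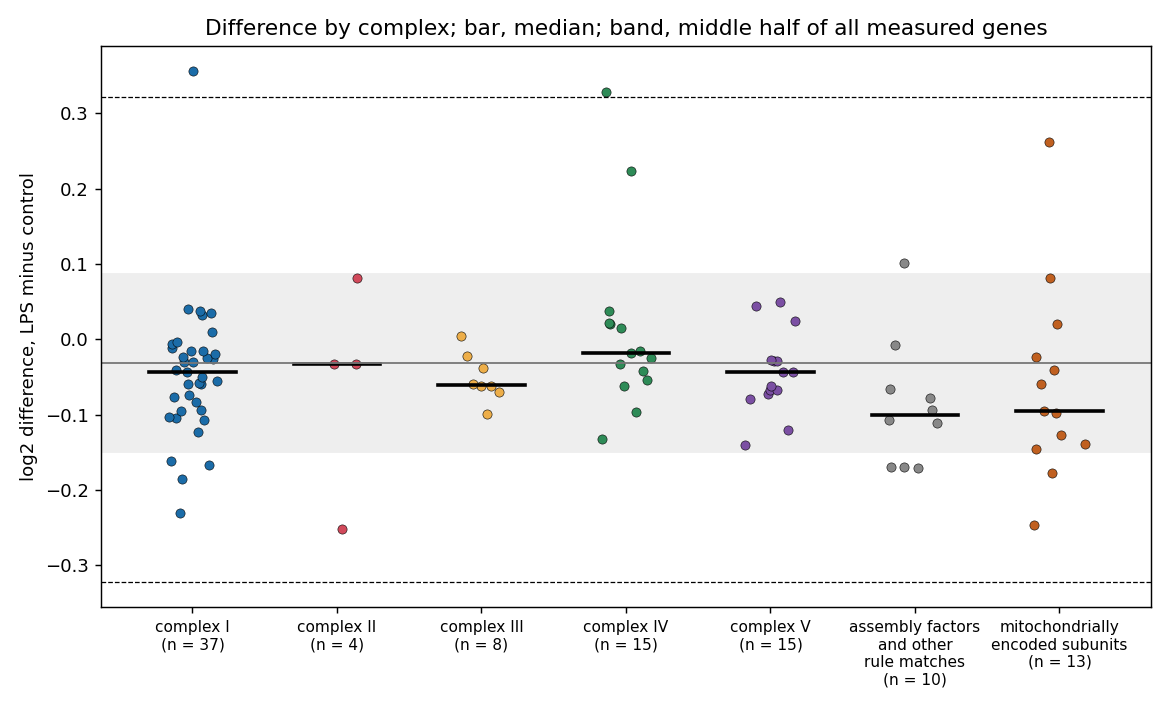
Log2 difference, LPS minus control, of the measured subunits of each complex, of the 10 rule matches that are not subunits and of the 13 mitochondrially encoded subunits; bars are medians, the grey band is the middle range from the lower to the upper quartile of all measured genes, the grey line their median and the dashed lines 0.32 either way. The points of all 5 complexes lie mostly inside the band, with Ndufv3 and Cox7b2 above the upper dashed line and none below the lower one.

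Different probes of 1 gene were compared, since a difference seen by a single probe may not hold for the gene. Of the members, 31 had at least 2 measured probes, and their differences spanned a median of 0.080, against 0.134 over the 5900 genes with at least 2 measured probes. The span was over 0.3 for 4 members, Ndufv3, Ndufab1, Atp5j and Ndufaf5, and was highest, at 0.49, for Ndufaf5. In 2 of the 4, Ndufv3 and Ndufab1, the probes differed in sign. Atp5j and Ndufaf5 were named after their values were seen. Some probes of 1 gene overlap in position, so they are not separate measurements. Over the 131 measured member probes the median difference was -0.058.

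**Figure D4:**
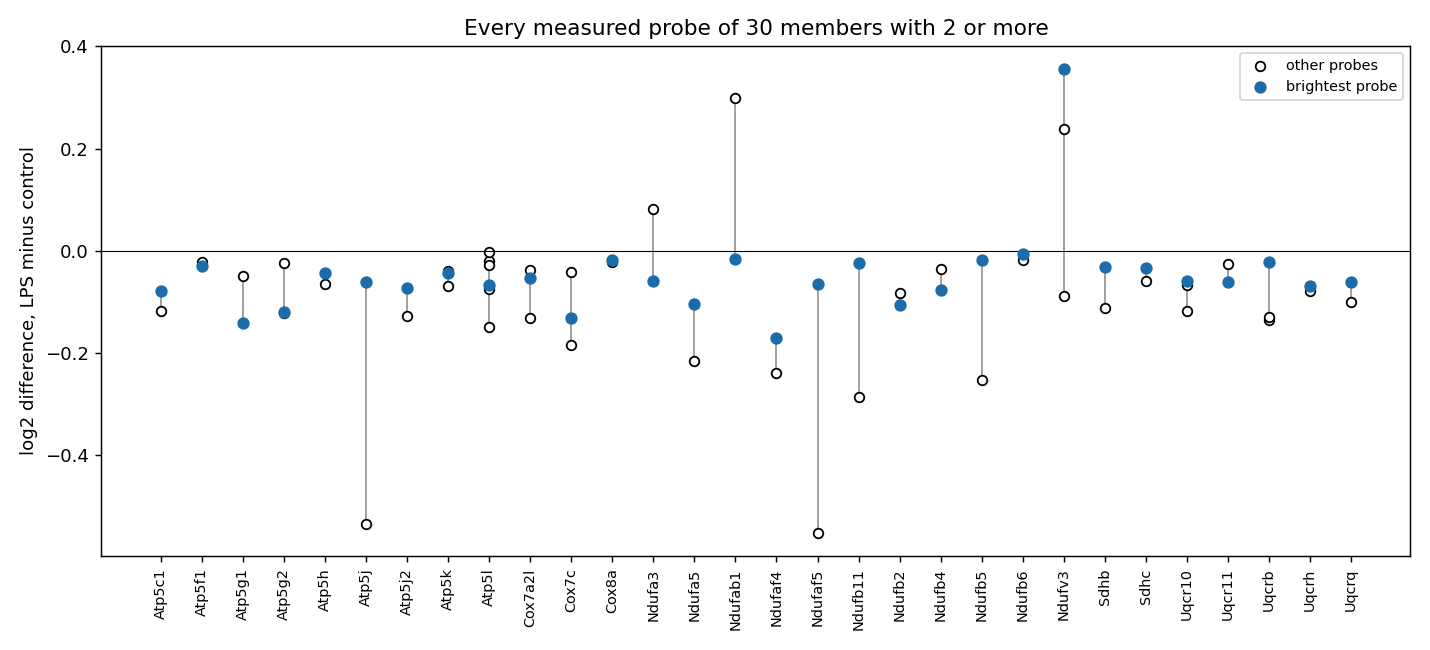
Log2 difference, LPS minus control, on every measured probe of 30 of the 31 members with at least 2, with the brightest probe filled and the others open. Most probes lie between -0.2 and 0, and the widest spans belong to Ndufaf5, Atp5j, Ndufv3 and Ndufab1.

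RefSeq windows on GRCm38.p6, from 250 bases before to 50 after each gene start, were found for 76 members, in 82 windows. The median GC content was 58% in the member windows and 52.7% in all 32851 windows. The search covered 4 motifs on both strands, and a window was counted once for each, overlaps between motifs allowed. The letters GCGCATGCG, bound by nuclear respiratory factor 1, a regulator of respiratory chain genes, were in 10 of the 82 member windows (12.2%) and in 1.75% of all windows. The letters CCGGAAG, of the ETS family that includes GABPA, were in 17 member windows (20.7%) and in 8.86% of all. The letters AAGATGGCG, of YY1, were in 9 member windows, of 8 members, and in 1.4% of all. The letters GGGACTTTC, from an NF-kB motif, were in 1 member window, that of Ndufv3, and in 0.353% of all. The first and the last motif were shortened by a base after longer forms had been searched. Their shares above are therefore for letters settled after that search. The longer NF-kB form, with a further C at its end, was in no member window and in 0.155% of all. The share for the longer form of the first motif is not given here. A match is a description of letters and not of binding.

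The windows of 5 of the 10 members with the first motif are shown over 59 bases, 5′ to 3′ on the strand of the gene (GRCm38.p6). These were the ones with the letters on the strand of the gene and, with 25 bases after them, wholly before the start. The letters were also in windows of Uqcr11 and Uqcrc1, of complex III, which are not shown. Capitals mark the letters on either strand. They lie at chr15:102671056-102671114 (minus) for Atp5g2, chr5:108434416-108434474 (minus) for Atp5k, chr5:115349087-115349145 (minus) for Cox6a1, chr17:56717677-56717735 (plus) for Ndufa11 and chr4:24897945-24898003 (plus) for Ndufaf4.
Atp5g2: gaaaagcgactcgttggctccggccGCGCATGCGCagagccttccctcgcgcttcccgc
Atp5k: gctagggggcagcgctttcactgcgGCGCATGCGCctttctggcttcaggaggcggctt
Cox6a1: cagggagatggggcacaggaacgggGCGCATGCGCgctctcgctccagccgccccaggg
Ndufa11: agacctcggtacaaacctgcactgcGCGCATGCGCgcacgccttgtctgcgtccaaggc
Ndufaf4: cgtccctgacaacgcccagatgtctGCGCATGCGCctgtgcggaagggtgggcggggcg

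The 10 members with these letters had a median difference of -0.052 and lay between -0.17 and 0.021. The 65 measured members with a window but without the letters had a median of -0.043 and lay between -0.25 and 0.36, a range that holds the other one. The 150 bases before the start are shown for the measured members with the highest and the lowest difference, Ndufv3 at chr17:31519965-31520114 (plus) and Sdhd at chr9:50603850-50603999 (minus). Capitals mark the NF-kB letters in the Ndufv3 window and the ETS letters, on the opposite strand, in the Sdhd window. The longer NF-kB form was not in the Ndufv3 window. Both windows were picked by the differences of their genes, and the part of the letters in those differences was not tested.
Ndufv3: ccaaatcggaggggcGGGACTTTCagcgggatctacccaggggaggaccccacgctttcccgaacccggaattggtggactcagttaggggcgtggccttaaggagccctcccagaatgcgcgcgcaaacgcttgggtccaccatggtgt
Sdhd: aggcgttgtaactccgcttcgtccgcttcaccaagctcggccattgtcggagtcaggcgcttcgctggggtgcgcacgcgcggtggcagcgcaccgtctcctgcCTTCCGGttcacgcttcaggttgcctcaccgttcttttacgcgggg

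The 13 subunits encoded in mitochondrial DNA were all measured, with a median of -0.095 and none past 0.32 either way. The highest, ND6, a complex I subunit on the other strand of the mitochondrial genome, read 1.18 on the LPS array and 0.92 on the control array, a difference of 0.26 ± 0.050. The lowest, ND3, also of complex I, read 5.98 on the LPS array and 6.23 on the control array, a difference of -0.25 ± 0.027. The array annotation places the ND3 probe on chromosome 1, so nuclear copies of mitochondrial sequence could share its signal.

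Of 39 other assembly factors listed, 33 were measured, with a median of 0.016. None was past 0.32 upwards, against 8.51% of all measured genes. Past it downwards was 1 of the 33, against 9.13% of all measured genes. That was Ttc19, which acts in complex III assembly, at 1.05 on the LPS array and 1.45 on the control array, a difference of -0.40 ± 0.049. Ecsit, which acts in complex I assembly and in Toll-like receptor signalling, was the highest, at 3.88 on the LPS array and 3.60 on the control array, a difference of 0.28 ± 0.031.

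Of 21 genes of ubiquinone synthesis, cytochrome c and metabolite exchange, 20 were measured on both arrays, with a median of -0.024 and none of the 20 past 0.32. Cycs, which encodes cytochrome c, read 5.98 on the LPS array and 6.08 on the control array, a difference of -0.10 ± 0.027. Cyc1, the cytochrome c1 subunit of complex III that the naming rule does not take, stood at -0.030. Coq7, of ubiquinone synthesis, was highest at 0.22, and Coq10a, a ubiquinone-binding protein, was lowest at -0.16. Coq3, named after its value was seen, was well above background on the LPS array alone. It was at least 3.96-fold higher there than the lowest well-measured signal of the control array.

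Of 17 regulators of mitochondrial biogenesis 16 were measured, with a median of 0.0076 and none past 0.32 either way. Ppargc1a, the coactivator of mitochondrial biogenesis, read 1.79 on the LPS array and 1.86 on the control array, a difference of -0.071 ± 0.043. Tfam, which packages and transcribes mitochondrial DNA, stood at -0.13 ± 0.037, and Nrf1 stood at 0.034 ± 0.044. Esrra, the nuclear receptor ERR alpha, was the highest at 0.23, and Mterf1a, a mitochondrial transcription terminator, was the lowest at -0.20. Ppargc1b was not well above background on either array.

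All 23 genes of the tricarboxylic acid cycle and pyruvate entry were measured, with a median of 0.022. Of these Pdk1, the kinase that switches off pyruvate dehydrogenase, read 2.05 on the LPS array and 1.49 on the control array. Its difference was 0.56 ± 0.044 and the only one past 0.32. That is 4.35% of the 23, against 8.51% of all measured genes past 0.32 upwards. Idh3a, of isocitrate dehydrogenase, was the lowest at -0.24. All 77 genes of the mitochondrial ribosome were measured, with a median of -0.057 and a highest value of 0.17, for Mrpl45. In that list 3 of the 77 were past 0.32 downwards, against 9.13% of all measured genes, and 96.1% lay within 0.32, against 82.4%. The 3 were Mrps35 at -0.44, and, named after their values were seen, Mrps6 at -0.40 and Mrps31 at -0.34.

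Of 7 mitochondrial antioxidant genes, 2 were past 0.32 upwards and 1 downwards, around a median of -0.059. Of all measured genes, 8.51% were past it upwards and 9.13% downwards. Sod2, the manganese superoxide dismutase that clears superoxide made by the chain, read 6.03 on the LPS array and 4.97 on the control array, a difference of 1.06 ± 0.027 or 2.08-fold. Prdx5, a peroxiredoxin named after its value was seen, stood at 0.40 ± 0.027. Txnrd2, the mitochondrial thioredoxin reductase, stood at -0.43 ± 0.043. The Sod2 difference was larger than that of every measured chain member.

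**Figure D5:**
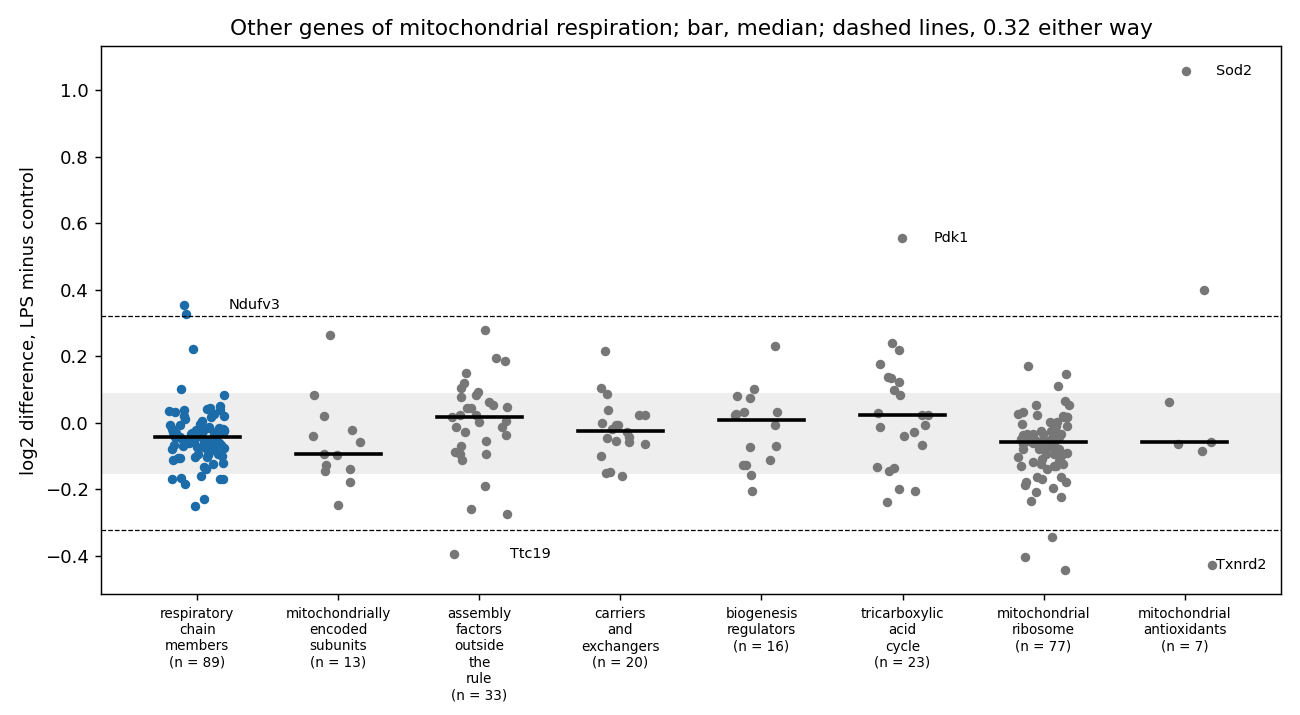
Log2 difference, LPS minus control, of the 89 measured respiratory chain members (blue) and of 7 other lists (grey); bars are medians, the band runs between the quartiles of all measured genes and the dashed lines mark 0.32 either way. Every list has its median near 0, between -0.095 and 0.022, and Sod2, at 1.06, and Pdk1, at 0.56, stand above the chain members.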

How the data were processed

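The deposited values are Cy3 spot intensity values, 1 colour per array. The file headers give Feature Extraction 10.10.1.1 as the software and mm9 as the build. Both samples carry one treatment text, and its dose and time were read as those of the LPS sample. Control spots were dropped, as were 223 flagged spots. The processed intensity, which the deposited files hold background-subtracted per the file headers, was put on the log2 scale minus each array's 75th percentile. Spots of a probe were averaged, and a gene took its brightest probe. Symbols were matched by accession for 92 of 93 members. The separate values of 1 member and 1 marker gene are not reported here. The exon or UTR position of probes was not analysed here.

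The members and lists were chosen with earlier results of these data known. No test was run, as each group had 1 array. Named genes are all members of complex II, and in the others the 3 brightest, highest and lowest. The rule adds isoform pairs, members whose probes differ in sign by over 0.3, a few regulators, and the extremes of each other list.

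Alternatives were normexp with an offset of 50, quantile normalization, cyclic loess, median centring, the percentile over detected probes, the median over probes, no filter on dim probes, and brighter members or subunits alone. Software was limma 3.58.1 in R 4.3.3, and numpy 2.4.6, pandas 2.3.3 and matplotlib 3.10.9 in Python 3.11.15. The calculation was tested on simulated data.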

Additional observations from a re-analysis of the deposited data

How the results depend on the processing

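The members' median, -0.043, was -0.085 with quantile normalization and -0.014 with median centring, and the members above 0 were 8 and 35 against 18. In the same order of these separate settings, the medians were -0.086 and -0.028 for complex I, -0.065 and -0.0037 for complex II, -0.099 and -0.031 for complex III, -0.048 and 0.011 for complex IV, and -0.096 and -0.024 for complex V. Members past 0.32 upwards numbered 1 with normexp, with the median over probes and among brighter members alone, and 5 with no filter on dim probes, against 2. None was past 0.32 downwards under any of these settings. Of 353 recomputed values of named members 68 moved by more than the spot SD, at most by 0.256, for Cox7b2. The 353 include values that could not move, because the setting only changes which members are counted. These are 40 with no filter on dim probes, 36 with brighter members alone and 37 with subunits alone. The median over probes likewise could not move a member with 1 probe. The share that moved is therefore understated. Of the 40 named members measured, 5 turned from above to below 0 with quantile normalization (Atp5b, Cox6a1, Cox7b, Ndufs5 and Uqcrfs1), and 4 turned to above 0 with median centring (Cox6b1, Cox8a, Ndufab1 and Uqcrb). Cox6b1 also turned with cyclic loess and Ndufab1 with the median over probes. On the scale of the report their differences were at most 0.050 in size. Ndufv3 ranged from 0.24 to 0.38 and Sdhd from -0.29 to -0.22. Median centring shifts every difference by the same amount, so its moves and its turns of sign follow from that shift. The cause of the other moves was not tested. No paired analysis was possible because each group had 1 array. Dim members are limited by signal over background.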
